A study of Homo sapiens with 18 samples.

Results

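The plasminogen activator system is described here through 5 genes, PLAU, PLAUR, PLAT, SERPINE2 and SERPINB2, out of 36204 gene names on the arrays. They were found by their names in the annotation of the arrays and had been chosen on measured values, because PLAU and PLAUR differed in opposite directions between the untreated cell lines. The untreated arrays of both lines thus took part in the choice. Every difference that uses these arrays is given for the 5 genes as a description, with no test.

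PLAU encodes urokinase and PLAT the tissue plasminogen activator, serine proteases that cut plasminogen into plasmin, which in turn degrades fibrin and other proteins of the matrix around cells. Urokinase is secreted as a proenzyme and acts largely at the cell surface, bound to its lipid-anchored receptor, which PLAUR encodes. SERPINE2 (protease nexin 1) and SERPINB2 (plasminogen activator inhibitor 2) are serpins, inhibitors that trap such proteases in a stable complex. In colorectal tumours urokinase and its receptor are known for their link with invasion, and both tumour cells and the surrounding stroma can make them.

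The cells were HT29, from a human colorectal adenocarcinoma, and its subline HTOXAR3, which has acquired resistance to oxaliplatin (OXA), a platinum drug that damages DNA. For both lines there were untreated cultures and cultures kept for 24 h in OXA or in OXA plus Curcumin, a plant polyphenol, with 3 arrays in each of the 6 groups. The OXA dose, which the labels call IC50, was 10 µM in HT29 but 30 µM in HTOXAR3, and that of Curcumin 10 µM throughout. A comparison of the treated lines is therefore also one of 2 OXA doses. The labels call the 3 arrays of a group biological replicates. No array had Curcumin alone, so its effect is seen only on top of OXA.

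Values are log2 intensities of one-colour arrays after background correction and quantile normalization, on which a difference of 1 is a 2-fold change. The scanner software flags a spot as well above background where it is clearly brighter than its surroundings. This held for between 49.2% and 61.2% of the 50599 probes, depending on the array, and the 3 arrays of a group limit the precision of every value. A gene was called at a fold above 1.2 and a limma p below 0.05 after Benjamini-Yekutieli (BY) adjustment over all 36204 names. The 5 genes were tested only for differences between groups of treated arrays, whose values the stated reason for their choice did not use. Earlier results of these data were, however, known when they were chosen. The model was fitted to all 18 arrays, so the untreated arrays still enter the SE and the adjusted p of each test. There were 5 comparisons: the lines under OXA, the lines under OXA plus Curcumin, what Curcumin added to OXA in HT29 and in HTOXAR3, and how far that addition differed between the lines. The arrays lay on 3 slides. Slide 1 held 1 untreated and 1 OXA-treated HT29 array, and slides 2 and 3 held all 6 groups, so that each difference could also be taken within slide 2 and within slide 3.

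The cultures carried the markers of their labelled origin. Of 11 markers of colon epithelium, 9 were well above background on all 18 arrays, among them EPCAM, CDH1, KRT20 and VIL1. Of the fibroblast markers, 0 of 6 were so on all arrays, with COL1A1 well above background on 10 arrays, LUM on 5, DCN and PDGFRB on 1 each, and COL1A2 and COL3A1 on none. CDX2, a transcription factor of intestinal epithelium, was well above background on 10 arrays, with a mean log2 intensity of 7.11 in untreated HT29 and 4.95 in untreated HTOXAR3. LGALS4 stood at 14.96 and 12.90 in the same groups, and VIL1 at 12.07 and 10.46. CEACAM5 was also lower in untreated HTOXAR3 (6.73 and 5.53), and EPCAM slightly so (16.39 and 16.21). CDH1 (13.37 and 13.34), KRT20 (13.45 and 13.42) and CDX1 (9.30 and 9.27) were nearly level. KRT8 (15.87 and 16.04), KRT18 (18.33 and 18.47) and KRT19 (17.73 and 17.86) were higher in untreated HTOXAR3. Leukocyte markers were well above background on all arrays for 5 of 6 genes and endothelial ones for 2 of 5. CD68, a macrophage marker, was higher under OXA plus Curcumin than under OXA, at 7.86 and 6.67 in HT29 and 8.20 and 6.80 in HTOXAR3. The part of these markers in the results was not tested.

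The array reads each transcript through probes of 60 bases, and the sequences below are those of the PLAUR and SERPINE2 probes and of 1 of 2 PLAU probes. Positions follow GRCh37 as given in the annotation file, sequences run 5′ to 3′, and none of their letters is marked.
PLAU: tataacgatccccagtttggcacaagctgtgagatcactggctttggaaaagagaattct
PLAUR: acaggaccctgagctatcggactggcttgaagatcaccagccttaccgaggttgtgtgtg
SERPINE2: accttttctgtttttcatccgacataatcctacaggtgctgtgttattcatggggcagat

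The PLAU sequence lies on the plus strand of chromosome 10, from 75674614 to 75674673, and 2 of its 3 reading frames run through it without a stop codon. It belongs to the dimmer of 2 PLAU probes. The brighter probe, which stands for the gene below, lies further along the message (10, 75677050 to 75677109) and was printed in 10 spots on each array. The PLAUR probe lies on the minus strand of chromosome 19 (44169498 to 44169557) and is annotated to 3 RefSeq transcripts, so it reads their sum and does not tell receptor isoforms apart. The 60 bases of the SERPINE2 probe span 1699 bases of chromosome 2 on the minus strand (224840597 to 224842295), so the probe crosses a splice junction and reads spliced message.

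PLAU was lowest in untreated HT29, with log2 intensities of 9.28, 9.32 and 9.32. In HT29 under OXA it stood at 12.02, 12.10 and 12.11, and under OXA plus Curcumin at 10.85, 10.88 and 10.77. Within HT29 the groups thus did not overlap, and the arrays with Curcumin lay between the untreated and the OXA arrays. In HTOXAR3 the untreated arrays gave 10.67, 10.77 and 10.80, the OXA arrays 12.75, 12.75 and 12.73, and the arrays with OXA plus Curcumin 11.69, 11.86 and 11.71. The order of treatments was the same in both lines, with every HTOXAR3 array above every HT29 array of the same treatment. Over the 6 groups the mean ran from 9.31 ± 0.02 (SD, n = 3) to 12.74 ± 0.01, a span of 3.44, and the median SD of a group was 0.05.

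From the highest level to the lowest, the order for PLAU was HTOXAR3 under OXA, HT29 under OXA, HTOXAR3 under OXA plus Curcumin, HT29 under OXA plus Curcumin, untreated HTOXAR3 and untreated HT29. Of these neighbours, HT29 under OXA plus Curcumin and untreated HTOXAR3 did not differ beyond their spread: their means were 0.09 apart and their arrays overlapped. As a description, PLAU in untreated HTOXAR3 was 2.71-fold above its level in untreated HT29 (log2 difference 1.44, SE 0.06), the contrast that chose it. Against the untreated arrays of its own line it was higher under OXA by 2.77 in HT29 (6.82-fold) and by 2.00 in HTOXAR3, and under OXA plus Curcumin by 1.53 and 1.01. These differences share the untreated arrays with the choice of the gene and carry no test.

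**Figure D1:**
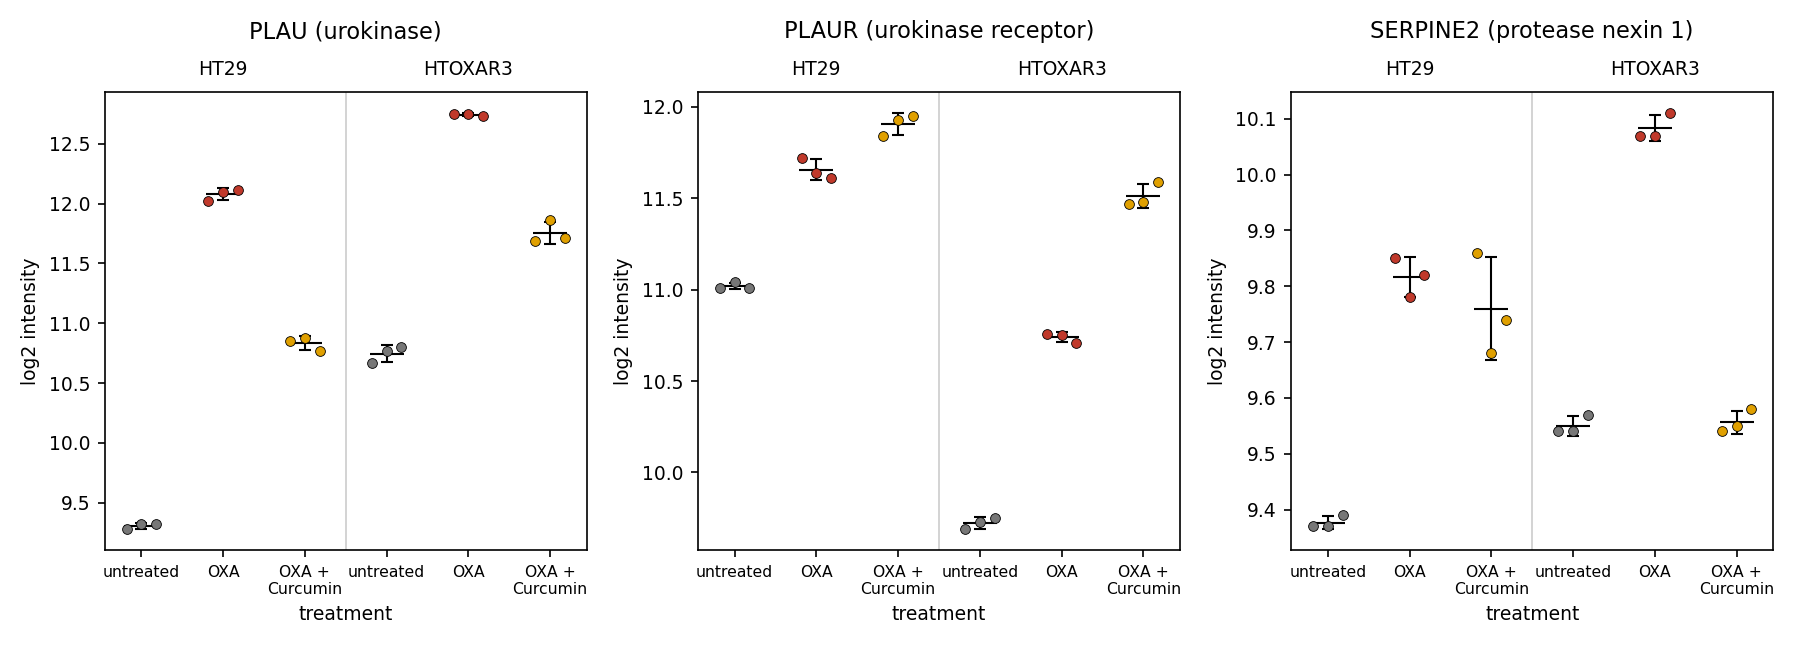
Log2 intensity of PLAU, PLAUR and SERPINE2 (vertical axes, a scale of its own for each gene) on each of 18 arrays by cell line and treatment, with the mean and SD of the 3 arrays of a group as a bar with whiskers. PLAU falls back from OXA to OXA plus Curcumin in both lines, whereas PLAUR is at its highest in each line under OXA plus Curcumin.

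Among the treated arrays, the addition of Curcumin to OXA lowered PLAU in both lines. In HT29 it fell by 1.24 (2.37-fold, SE 0.06, adjusted p = 3.74e-07), with all 3 arrays with Curcumin below all 3 with OXA alone, where 2.36% of all names were called lower. Among the 855 names called lower there that were well above background on every array of at least 1 of the groups, this was the fall ranked 4 by size. In HTOXAR3 PLAU fell by 0.99 (1.99-fold, SE 0.06, adjusted p = 1.68e-06), again without overlap, where 4.42% of names were called lower, and ranked 104 of 1599. The falls were -1.24 and -1.34 within slides 2 and 3 in HT29, and -1.07 and -0.95 in HTOXAR3, and with the slide as a block -1.26 and -0.99. In a model of the HT29 OXA and OXA plus Curcumin arrays alone the fall in HT29 was not called (adjusted p = 0.0611). The difference between the lines in this effect was 0.25 (95% interval 0.07 to 0.44) and was not called (adjusted p = 1.00).

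PLAU also stayed higher in the resistant line when both lines had received the drug. Under OXA the difference between HTOXAR3 and HT29 was 0.67 (1.59-fold, SE 0.06, adjusted p = 1.39e-05), and under OXA plus Curcumin it was 0.92 (1.89-fold, SE 0.06, adjusted p = 5.96e-07). The HTOXAR3 arrays lay above all HT29 arrays in both cases, and the within-slide differences were 0.65 and 0.63 under OXA and 0.82 and 1.02 with Curcumin (0.64 and 0.92 with the slide as a block). Of all names, 7.13% were called higher in HTOXAR3 under OXA and 6.95% under OXA plus Curcumin, and by size PLAU ranked 1270 of 2556 and 628 of 2480 among those well above background in the same sense. Line and dose cannot be told apart in either comparison. As in any bulk culture, fewer expressing cells and less RNA per cell cannot be told apart either.

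The dimmer PLAU probe, whose sequence is given above, can be set against the brighter one as a separate reading of the same gene. Its group means ran from 5.72 ± 0.28 (SD, n = 3) in untreated HT29 to 9.21 ± 0.11 in HTOXAR3 under OXA, and its spread within groups was wider (median SD 0.14). Fitted among all 50599 probes, it gave -1.23 (SE 0.15, adjusted p = 0.00110) for the addition of Curcumin in HT29 and -0.82 (SE 0.15, adjusted p = 0.0154) in HTOXAR3. Between the lines it gave 0.72 (adjusted p = 0.0244) under OXA and 1.13 (adjusted p = 6.01e-04) under OXA plus Curcumin. Both probes thus moved in the same direction in each of these 4 comparisons. The 10 spots of the brighter probe had a median SD of 0.18 within an array, and 3 of its 180 spots were left out for an outlier flag.

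**Figure D2:**
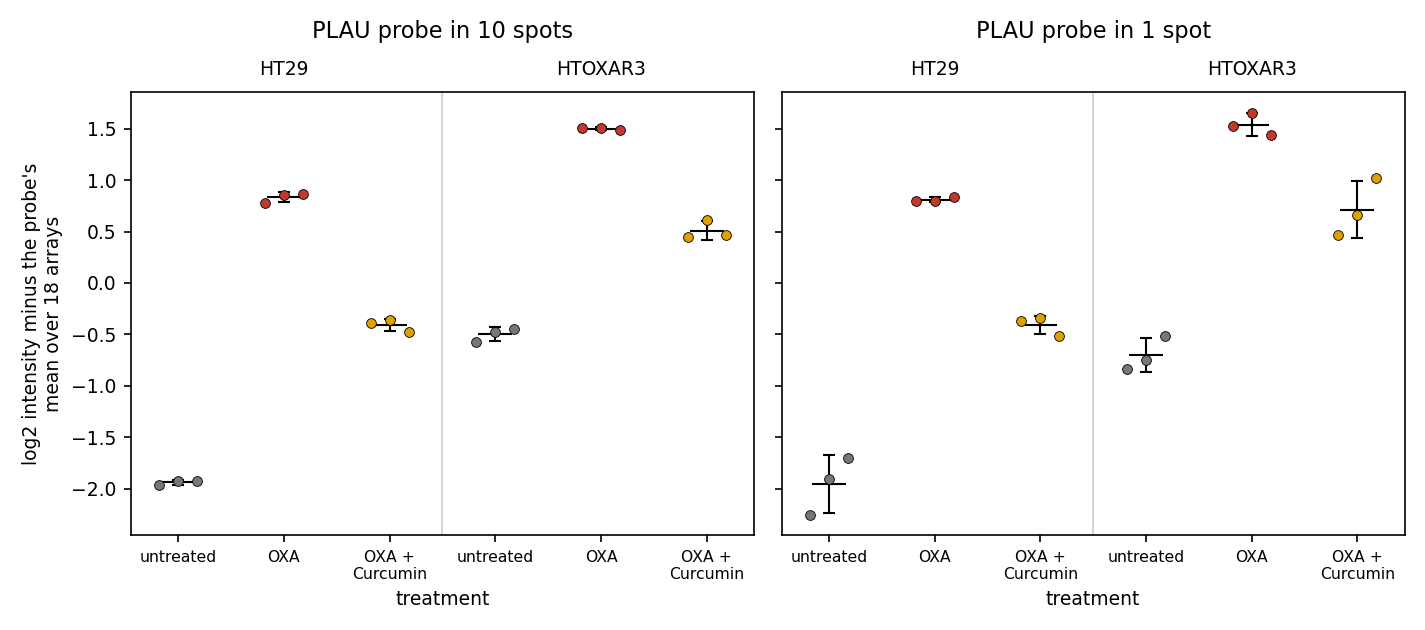
The 2 PLAU probes on 18 arrays, each as log2 intensity minus that probe's own mean over the arrays, by cell line and treatment, with mean and SD of the 3 arrays of a group. The groups stand in nearly the same places for both probes, and the probe printed in 1 spot scatters more.

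PLAUR followed another course. In HT29 its log2 intensities were 11.01, 11.04 and 11.01 untreated, 11.72, 11.64 and 11.61 under OXA, and 11.84, 11.93 and 11.95 under OXA plus Curcumin. In HTOXAR3 they were 9.69, 9.73 and 9.75 untreated, 10.76, 10.75 and 10.71 under OXA, and 11.47, 11.48 and 11.59 under OXA plus Curcumin. In both lines the arrays with Curcumin were the highest and the untreated arrays the lowest, with no overlap, and every HTOXAR3 array lay below every HT29 array of the same treatment. The span between group means was 2.18 and the median SD of a group 0.04.

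The highest mean of PLAUR was that of HT29 under OXA plus Curcumin, followed by HT29 under OXA, HTOXAR3 under OXA plus Curcumin, untreated HT29, HTOXAR3 under OXA and untreated HTOXAR3. No neighbours in this order had overlapping arrays, and the narrowest step, between HT29 under OXA and HTOXAR3 under OXA plus Curcumin, was 0.14 with 11.61 as the lowest array above it and 11.59 as the highest below. As a description, PLAUR in untreated HTOXAR3 was 2.46-fold below its level in untreated HT29 (log2 difference -1.30, SE 0.05), the contrast that chose it. Against its own untreated arrays it was higher under OXA by 0.64 in HT29 and 1.02 in HTOXAR3, and higher under OXA plus Curcumin by 0.88 in HT29 and by 1.79 (3.45-fold) in HTOXAR3.

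When Curcumin was added to OXA, PLAUR rose in HTOXAR3 by 0.77 (1.71-fold, SE 0.05, adjusted p = 5.86e-06), with all 3 arrays above those with OXA alone, where 4.38% of names were called higher and PLAUR ranked 468 of 1568. In HT29 the difference was 0.25 (1.19-fold, SE 0.05, 95% interval 0.13 to 0.36) and was not called (adjusted p = 0.0799), with 3.11% of names called higher there. The 3 HT29 arrays with Curcumin nevertheless lay above the 3 without, and the within-slide differences were 0.24 and 0.34 in HT29, beside 0.71 and 0.80 in HTOXAR3, and with the slide as a block 0.26 and 0.77. The rise in HTOXAR3 was not called in a model of the compared arrays alone (adjusted p = 0.0540). The effect in HTOXAR3 exceeded that in HT29 by 0.53 (SE 0.08, 95% interval 0.36 to 0.69), which was not called (adjusted p = 0.0595), where 0.130% of names were called in either direction. That last p was below 0.05 under 4 of 11 alternative settings, which are given with the alternatives. With 1 array left out, between 8 and 59 of all names were called for this line difference, beside 47 with all arrays.

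Between the lines, PLAUR remained lower in the resistant cells under both treatments. Under OXA the difference was -0.92 (1.89-fold lower, SE 0.05, adjusted p = 1.80e-07), and under OXA plus Curcumin it was -0.39 (1.31-fold lower, SE 0.05, adjusted p = 8.68e-04), with no overlap of arrays in either case. Within slides 2 and 3 the values were -0.88 and -0.88 under OXA and -0.41 and -0.41 with Curcumin, and with the slide as a block -0.90 and -0.40. Called lower in HTOXAR3 were 6.98% of names under OXA and 6.93% under OXA plus Curcumin, and among those well above background PLAUR ranked 642 of 2512 and 2132 of 2488. In a model of the 6 arrays compared alone, the smaller difference was not called (adjusted p = 0.213).

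Within each line the enzyme and its receptor were thus both higher under OXA than untreated, and parted when Curcumin was added: PLAU fell in both lines, and PLAUR rose in HTOXAR3. In the comparisons of the lines they kept opposite signs on the treated arrays. The stated reason for their choice did not use these arrays, though earlier results of these data were known.

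**Figure D3:**
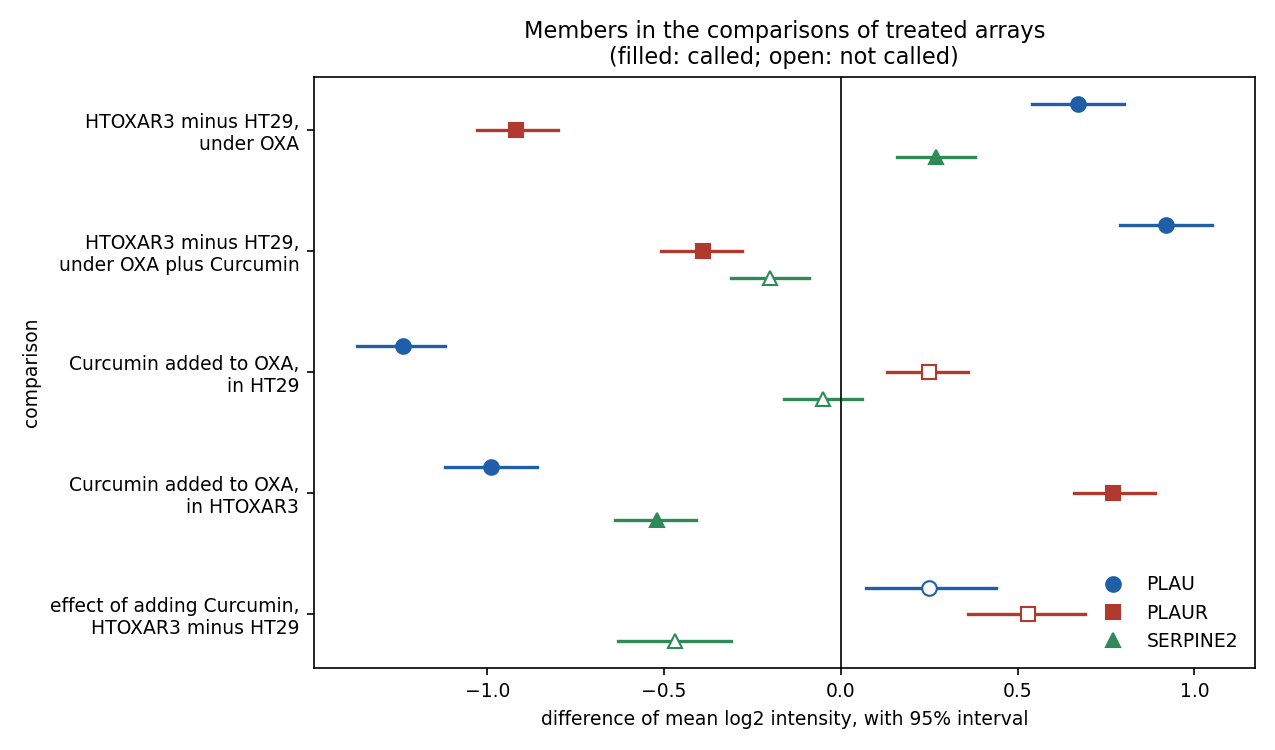
Differences of mean log2 intensity (horizontal axis) with their 95% intervals for PLAU, PLAUR and SERPINE2 in the 5 comparisons of treated arrays (vertical axis), filled where called and open where not. PLAU lies right of 0 and PLAUR left of 0 in both line comparisons, and the sides are exchanged for the addition of Curcumin.

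SERPINE2, an inhibitor of urokinase, tissue plasminogen activator and thrombin, varied within a narrower range of 0.71 between group means. In HT29 its log2 intensities were 9.37, 9.37 and 9.39 untreated, 9.85, 9.78 and 9.82 under OXA, and 9.86, 9.68 and 9.74 under OXA plus Curcumin. In HTOXAR3 they were 9.54, 9.54 and 9.57 untreated, 10.07, 10.07 and 10.11 under OXA, and 9.54, 9.55 and 9.58 under OXA plus Curcumin. The OXA arrays of HTOXAR3 were the highest, the HT29 arrays with and without Curcumin overlapped, and in HTOXAR3 the arrays with Curcumin overlapped the untreated ones. From the top the order was HTOXAR3 under OXA, HT29 under OXA, HT29 under OXA plus Curcumin, HTOXAR3 under OXA plus Curcumin, untreated HTOXAR3 and untreated HT29. Besides the 2 overlapping pairs of neighbours, 0.05 and 0.01 apart, the steps exceeded the sum of the neighbours' SDs.

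Adding Curcumin to OXA lowered SERPINE2 in HTOXAR3 by 1.44-fold (log2 difference -0.52, SE 0.05, adjusted p = 1.15e-04; -0.53 and -0.52 within slides 2 and 3, -0.52 with the slide as a block), which a model of the compared arrays alone did not call (adjusted p = 0.0936). In HT29 the difference was -0.05 (95% interval -0.16 to 0.06, adjusted p = 1.00). The line difference in this effect, -0.47 (SE 0.07, 95% interval -0.63 to -0.31), was not called (adjusted p = 0.0934). Under OXA SERPINE2 was 1.21-fold higher in HTOXAR3 (log2 difference 0.27, SE 0.05, adjusted p = 0.0141; 0.30 and 0.27 within slides 2 and 3, 0.28 with the slide as a block), close to the fold of 1.2 that a call requires, and leaving out any 1 of 5 of the 6 arrays compared ended the call, with adjusted p up to 0.0898. A model of these 6 arrays alone did not call it either (adjusted p = 0.543). By size SERPINE2 ranked 2537 of 2556 there, and 701 of 1599 for its fall with Curcumin in HTOXAR3. Under OXA plus Curcumin the sign was the opposite, at -0.20 (95% interval -0.31 to -0.09), and not called (adjusted p = 0.122). As a description, untreated HTOXAR3 exceeded untreated HT29 by 0.17, and OXA arrays exceeded untreated ones by 0.44 in HT29 and 0.53 in HTOXAR3.

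PLAT and SERPINB2 gave no measurable level in either line. The PLAT probe, on chromosome 8 and printed in 10 spots, was well above background in 1 of its 180 spots over all arrays, and on no array in most of its spots. Its scanner signal ran from 24.9 to 35.9, beside local backgrounds of 19.9 to 24.2. SERPINB2 had 2 probes, neither well above background on any array, with signals of 22.8 to 38.8 for the probe on chromosome 18 from 61570202 to 61570261 and of 20.9 to 35.2 for the other. Neither gene was lifted above background by OXA or by OXA plus Curcumin, so no fold is given for them.

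**Figure D4:**
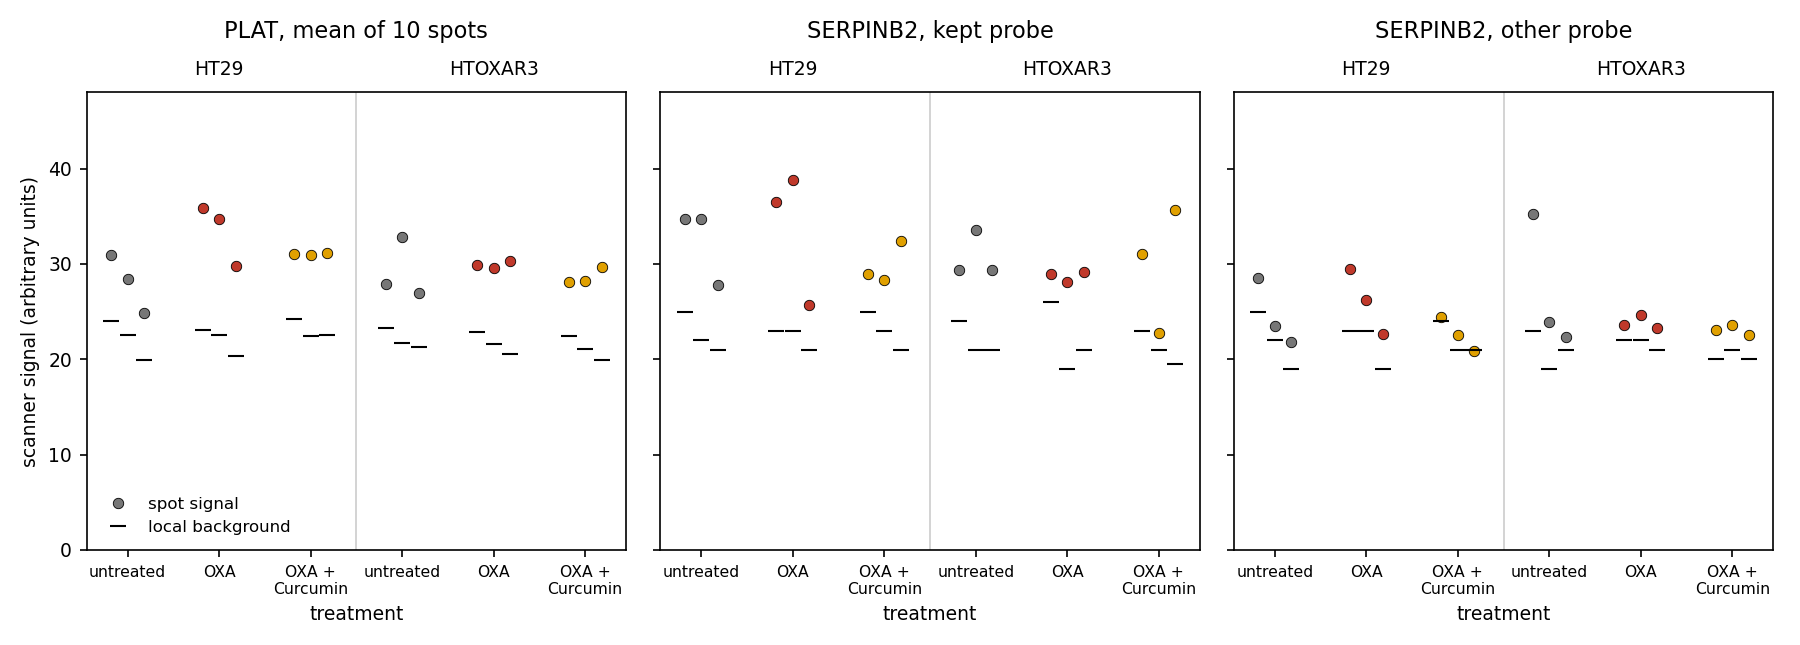
Scanner signal of the PLAT probe and of the 2 SERPINB2 probes (points, in the scanner's arbitrary units) with the local background of the same spots (dashes) on 18 arrays by cell line and treatment. All signals stay below 40 and no treatment stands apart.

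Because PLAU and PLAUR moved together under OXA and apart with Curcumin, the 250 bases before their transcription starts were read from the promoter table of RefSeq on GRCh38.p14, together with those of SERPINE2 and SERPINB2. PLAT was left out of this search. Capitals mark matches, on either strand, to TGANTCA (the AP-1 motif), to GGGCGG (an Sp1 motif) or to the 10-base NF-kB consensus.
PLAU, chr10:73910882-73911131, plus strand: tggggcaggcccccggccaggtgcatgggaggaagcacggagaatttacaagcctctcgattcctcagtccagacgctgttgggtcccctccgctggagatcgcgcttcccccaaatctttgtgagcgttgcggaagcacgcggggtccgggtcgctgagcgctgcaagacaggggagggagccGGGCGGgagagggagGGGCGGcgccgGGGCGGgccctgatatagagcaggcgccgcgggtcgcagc
PLAUR, chr19:43670170-43670419, minus strand: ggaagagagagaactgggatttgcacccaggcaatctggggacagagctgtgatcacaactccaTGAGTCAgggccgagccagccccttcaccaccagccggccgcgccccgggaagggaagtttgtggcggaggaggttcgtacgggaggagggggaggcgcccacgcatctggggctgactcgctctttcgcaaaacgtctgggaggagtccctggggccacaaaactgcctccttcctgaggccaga

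The PLAU window shown is the second of 2 in the table and holds 3 matches to GGGCGG, the nearest with 34 bases between it and the start; the other window (73910360 to 73910609) holds no match to any of the 3 motifs. The PLAUR window holds 1 match to TGANTCA, 179 bases before the start, and none to the others. SERPINB2 has a match to TGANTCA 95 bases before its start, and the 2 SERPINE2 windows have 1 and 2 matches to GGGCGG. Of 35116 windows of this length in the table, 6.6% hold TGANTCA, 42.6% hold GGGCGG and 6.9% hold the NF-kB consensus. The 3 motifs did not overlap in the windows shown. A match describes the letters in these windows only.

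The rest of the pathway was followed through a list of 39 genes: plasminogen and the inhibitors of plasmin, other inhibitors of the activators, plasminogen receptors, proteases that activate pro-urokinase with their inhibitors, partners of the urokinase receptor, and receptors that clear protease and inhibitor complexes with genes associated with them. Of these, 28 were well above background on all 18 arrays and 4 on none. PLG, the gene of plasminogen itself, was in the latter group. These genes took no part in the choice of the 5 and were tested in every comparison. The list was, however, drawn up with earlier results of these data known.

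Under OXA, HTOXAR3 differed from HT29 in 15 of the 39 (7 higher, 8 lower, where 7.13% and 6.98% of all names were called), and under OXA plus Curcumin in 11 (5 higher, 6 lower, where 6.95% and 6.93% were called). Untreated, 3 were higher and 6 lower, where 6.23% and 5.28% of all names were called. The median difference of the list was -0.01 under OXA, -0.04 under OXA plus Curcumin and -0.03 untreated, beside 0.01 or less in size for all names under treatment and -0.03 untreated. A model of the compared groups only called 8 of the 39 under OXA, 5 under OXA plus Curcumin and 2 untreated. Of all 36204 names, that model called 1647 under OXA and 1670 under OXA plus Curcumin, beside 5107 and 5025 in the fit reported. Its count over all names is not given for the untreated lines. The shares of all names include many dim names, whereas 28 of the 39 were well above background on every array. In a fit of the 21868 names well above background on all arrays of at least 1 group, 5853 were called under OXA. Under OXA plus Curcumin that fit called 5809. How far brightness accounts for the counts of the list was not tested. The group of clearance receptors, some of which carry complexes of urokinase with inhibitor into the cell, had 4 of 7 genes called lower in HTOXAR3 in each of the 3 comparisons. The group also holds the LRP1 chaperone LRPAP1 and the collagen receptor MRC2. A further gene of the 7, LRPAP1, was called higher under OXA and under OXA plus Curcumin. LRP1, the endocytic receptor for such complexes, had mean log2 intensities of 8.18, 8.52 and 8.86 in HT29 and 6.05, 6.38 and 6.27 in HTOXAR3 (untreated, OXA, OXA plus Curcumin; SD up to 0.19). It was lower in HTOXAR3 by 4.38-fold untreated (adjusted p = 2.31e-08), 4.42-fold under OXA (adjusted p = 1.84e-08) and 6.04-fold under OXA plus Curcumin (adjusted p = 2.73e-09). MRC2, the collagen receptor also known as the urokinase receptor associated protein, was lower by 4.24-fold, 5.22-fold and 3.84-fold in the same order. SORL1, a sorting receptor that also binds urokinase complexes, was 2.34-fold lower under OXA plus Curcumin (log2 difference -1.23, SE 0.09, adjusted p = 3.04e-06).

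Some genes of the list were higher in the resistant line in at least 1 of the comparisons. FPR1, a formyl peptide receptor that interacts with the urokinase receptor, was higher by 1.47, 1.75 and 1.58 (untreated, OXA, OXA plus Curcumin), though in untreated HT29 it was well above background on 1 of 3 arrays. SERPINA5, the protein C inhibitor, was 2.33-fold higher untreated (adjusted p = 0.0197) and was not called under OXA (0.92, adjusted p = 0.125) or OXA plus Curcumin (0.32, adjusted p = 1.00). LRPAP1, the chaperone of LRP1, was 2.88-fold higher in HTOXAR3 under OXA (adjusted p = 1.50e-08), and not called between the untreated lines (0.12, adjusted p = 1.00). Its value under OXA plus Curcumin, 0.95 (adjusted p = 2.08e-06), was chosen after it was seen.

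**Figure D5:**
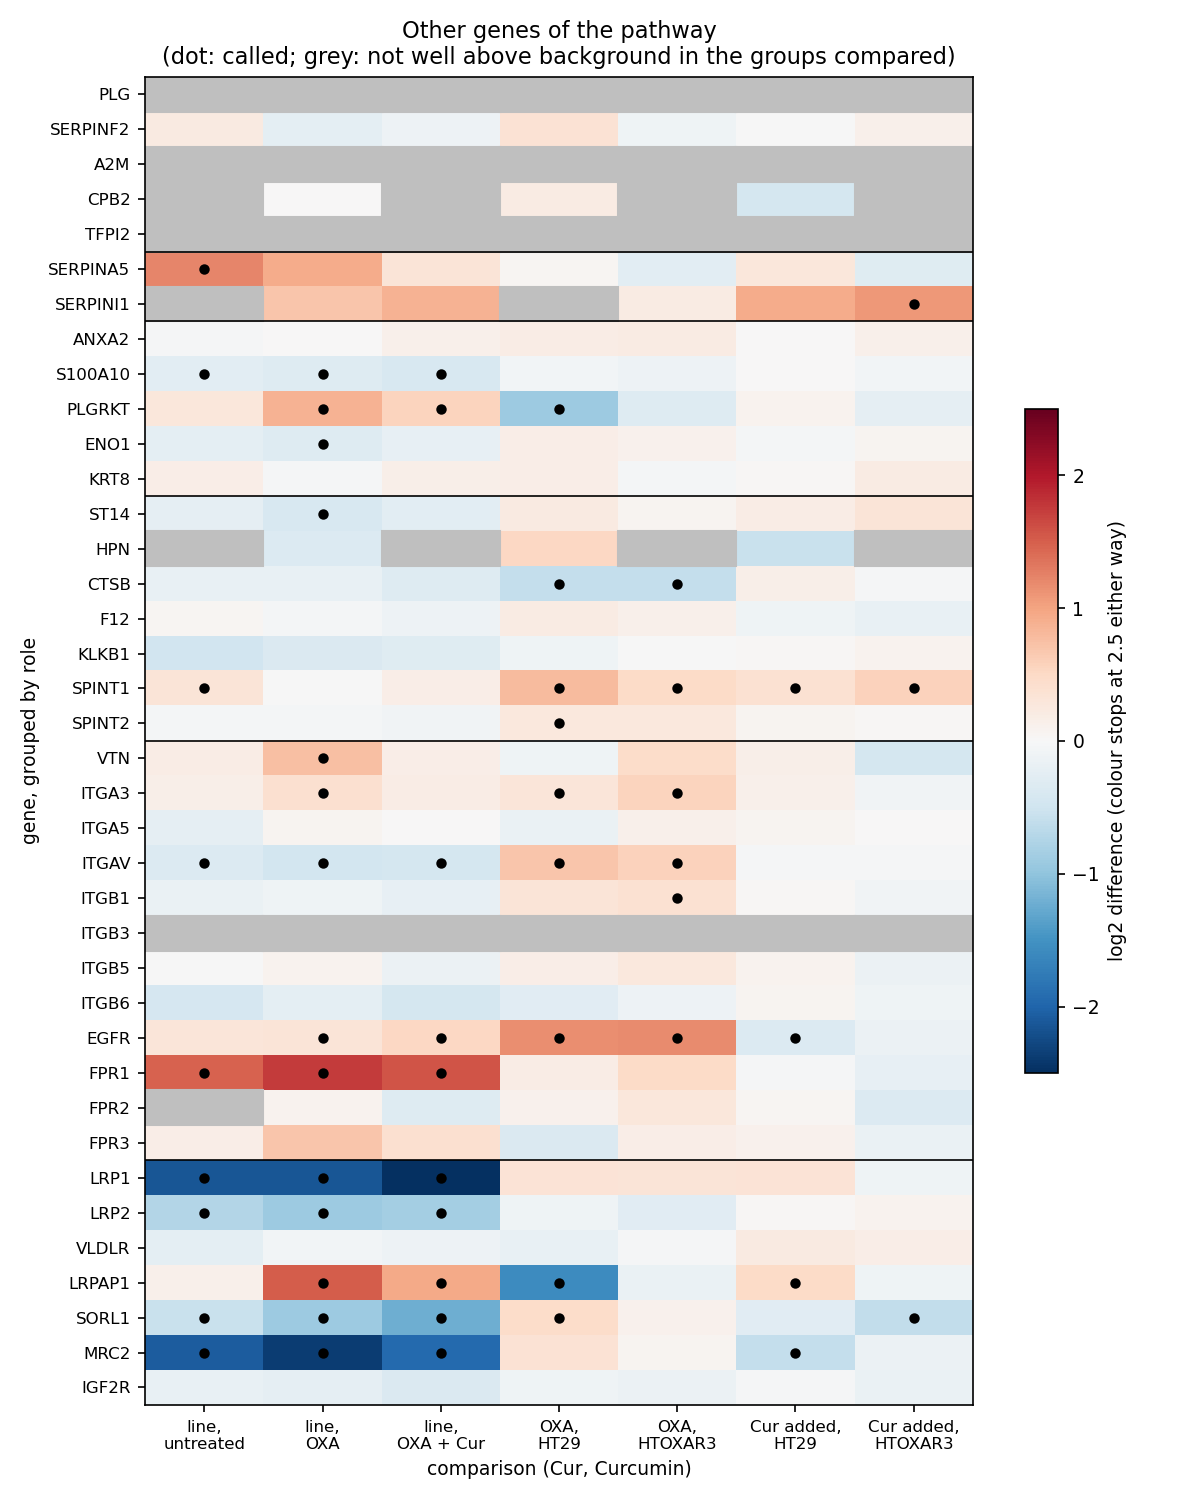
Log2 differences of other pathway genes (vertical axis, grouped by role, lines between roles) in 7 comparisons (horizontal axis), red where higher and blue where lower, with a dot where called and grey where the gene was not well above background in the groups compared. LRP1, LRP2, SORL1 and MRC2 are lower in HTOXAR3 in each of the 3 comparisons of the lines.

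Against untreated cells, OXA changed 9 of the 39 in HT29 (6 higher, 3 lower, where 8.49% and 7.48% of all names were called) and 6 in HTOXAR3 (5 higher, 1 lower, where 5.52% and 4.85% were called). EGFR, a signalling partner of the urokinase receptor, rose by 1.17 in HT29 (adjusted p = 2.20e-07) and by 1.19 in HTOXAR3 (adjusted p = 9.05e-07). LRPAP1 fell by 1.57 in HT29 (2.96-fold, adjusted p = 1.50e-08), as did PLGRKT, a plasminogen receptor, by 0.90. In HTOXAR3 neither was called (-0.16 and -0.32). In HTOXAR3 the integrin genes ITGA3 and ITGAV rose by 0.56 and 0.58, and CTSB, encoding cathepsin B, fell by 0.59. Chosen after they were seen, the values of these 3 genes in HT29 were called in the same directions (0.30, 0.69 and -0.59). Under OXA plus Curcumin the counts against untreated cells were 7 higher and 3 lower in HT29 (9.70% and 8.84% of all names) and 8 higher and 3 lower in HTOXAR3 (8.96% and 8.51%), with SPINT1 higher by 2.29-fold and 2.05-fold. With the compared groups only in the model, the counts were 4 in HT29 and 1 in HTOXAR3 for OXA, and 4 in each line for OXA plus Curcumin. The shares of all names above include dim names and belong to the fit of all groups. Those of the smaller model, and those without dim names, are not given. Whether the list lost more calls than other names therefore cannot be told from these counts. These comparisons share the untreated arrays with one another.

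Adding Curcumin to OXA changed 4 of the 39 in each line, 2 in each direction, where 3.11% of all names were called higher and 2.36% lower in HT29, and 4.38% and 4.42% in HTOXAR3. In the fit without dim names, 2687 of 21868 names were called in HT29 and 4026 in HTOXAR3. The median difference of the list was 0.02 in HT29 and -0.09 in HTOXAR3, beside -0.02 for all names in both. SPINT1, an inhibitor of the proteases that activate pro-urokinase, rose in HTOXAR3 by 0.57 (adjusted p = 8.03e-04), and in HT29, a value chosen after it was seen, by 0.39 (adjusted p = 0.0218). MRC2 fell by 0.59 (adjusted p = 0.00473) and LRPAP1 rose by 0.47 (adjusted p = 0.00512) in HT29, while SORL1 fell by 0.62 (adjusted p = 0.00365) in HTOXAR3. None of these 3 was called in the other line. In a model of the compared groups only, 0 of the 39 were called in either line, where 21 of all 36204 names were called in HT29 and 264 in HTOXAR3. With 1 array left out of the full model, the count of the 39 was as low as 2. SERPINI1, neuroserpin, an inhibitor of tissue plasminogen activator, rose by 1.09 in HTOXAR3 (adjusted p = 0.0334), from a level at which it was well above background on 2 of 3 arrays. For the difference between the lines in the effect of Curcumin, limma with BY called 0 of 39, where 0.130% of all names were called, and 8 had an unadjusted p below 0.05. With Benjamini-Hochberg adjustment 1 was called, LRPAP1, beside 318 of all 36204 names.

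Relatives of PLAUR and SERPINB2 that lie near them in the genome, 5 genes of the receptor's family and 9 clade B serpins, were mostly dim: 4 of the 14 were well above background on all arrays. Of these SERPINB5 (maspin) and SERPINB8 rose when Curcumin was added to OXA, in HT29 by 0.74 (adjusted p = 2.10e-04) and 0.63 (adjusted p = 0.00585), and SERPINB8 in HTOXAR3 by 0.72 (adjusted p = 0.00132). SERPINB5 also rose in HTOXAR3, by 0.51 (adjusted p = 0.00271), a value chosen after it was seen. SERPINB2 itself stayed at background on the same arrays.

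The names whose course over the 18 arrays was most like that of each measured gene were taken from 3813 or 3814 names well above background on all arrays with group means spanning at least 1. For PLAU these were WNT10A (Pearson r = 0.990), a secreted Wnt ligand, SLC12A4 (0.981), a potassium chloride cotransporter, and STAMBPL1 (0.979), a deubiquitinase. WNT10A, like PLAU, had its lowest mean in untreated HT29 (9.41) and its highest in HTOXAR3 under OXA (11.45). For PLAUR they were EPHB3 (0.972), an ephrin receptor, AGO2 (0.969), an argonaute protein, and TEP1 (0.968), a telomerase component. TEP1 stood highest in HT29 under OXA plus Curcumin (12.11) and lowest in untreated HTOXAR3 (9.81), as PLAUR did. For SERPINE2 they were IFIH1 (0.963) and DDX58 (0.917), sensors of double-stranded RNA. These correlations describe 18 arrays that fall into 6 groups and carry no p.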

How the data were processed

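Total RNA of 18 cultures was labelled with Cy3 and hybridised to one-colour Agilent arrays. Per array, the authors deposited Feature Extraction 10.7.3.1 output with each spot's mean intensity and local background on a linear scale, not normalized between arrays. The spot flags for background and outliers were read from the same output. The authors' own processed values were not used here, because its lines could not be matched to probes. Outlier spots were treated as missing after normexp background correction (offset 0) and quantile normalization over all spots. Control spots were then dropped, spots of a probe were averaged, and the probe with the highest mean stood for a gene name. A probe with several spots counted as well above background on an array where over 0.5 of its spots were.

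A linear model with a term for each group was fitted across the 18 arrays (limma 3.58.1, functions lmFit and eBayes, in R 4.3.3 with data.table, version 1.17.8), with BY adjustment over 36204 names. It was also tested on simulated data, drawn with independent normal noise on each array and no slide effect. Differences are of group means of log2 intensity. Figures and sequence searches used Python 3.11.15, pandas 2.3.3 and matplotlib 3.10.9. The members and the gene lists were chosen with earlier results of these data known. Named list genes were up to 4 called per comparison by absolute difference, among names well above background on every array of at least 1 group compared; for likeness, up to 3 names with the highest Pearson r were taken.

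No pair of replicate arrays held the same readings. Whether replicate numbers pair the arrays was checked by correlating deviations from the group means, for differences between groups of treated arrays only. Among these, every pair was above 0.1 only for the addition of Curcumin in HT29 (0.13, 0.13 and 0.26), which the labels do not explain. Alternatives were normexp offsets of 16 and 50, processed intensity minus the 75th percentile, normexp with that scaling, the mean of all probes, each PLAU probe alone, dim probes left out, slide or replicate number as a block, a model of the compared groups only, Benjamini-Hochberg adjustment, a fold above 2, and each array left out in turn.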

Additional observations from a re-analysis of the deposited data

Results flagged for a closer look

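For SERPINE2 the order of the lines differed between the 2 treatments. Under OXA all 3 HTOXAR3 arrays lay above all 3 HT29 arrays (difference 0.27), a call that was lost without any 1 of 5 arrays and in a model of the compared arrays alone (adjusted p = 0.543). Under OXA plus Curcumin all 3 lay below (-0.20), which was not called (adjusted p = 0.122). The change from one to the other was -0.47 on the log2 scale, also not called (adjusted p = 0.0934, and 0.166 with the slide as a block). Within slides 2 and 3 it was -0.53 and -0.45. The cause was not tested.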

How the results depend on the processing

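Of 15 differences of PLAU, PLAUR and SERPINE2, none changed direction under up to 12 alternatives or with any of 18 arrays left out. Requiring a fold above 2 ended, by its construction, the calls of PLAU between the lines under OXA (0.67) and OXA plus Curcumin (0.92) and for Curcumin in HTOXAR3 (-0.99), of PLAUR in the same comparisons (-0.92, -0.39 and 0.77), and of SERPINE2 under OXA (0.27) and for Curcumin in HTOXAR3 (-0.52). A model of the compared groups only, which has fewer arrays, did not call SERPINE2 under OXA (0.27), PLAUR under OXA plus Curcumin (-0.39), PLAU for Curcumin in HT29 (-1.24), or PLAUR (0.77) and SERPINE2 (-0.52) for Curcumin in HTOXAR3. With a normexp offset of 50 SERPINE2 under OXA was 0.26, below the fold required.

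The line difference in the effect of Curcumin became called for PLAUR with offsets of 16 (0.52, adjusted p = 0.0295) and 50 (0.51, adjusted p = 0.00665), dim probes left out (0.53, adjusted p = 0.00990) and Benjamini-Hochberg adjustment (0.53, adjusted p = 0.00537). For SERPINE2 it became called with an offset of 50 (-0.45, adjusted p = 0.0105), dim probes left out (-0.47, adjusted p = 0.0138) and Benjamini-Hochberg adjustment (-0.47, adjusted p = 0.00844). The cause was not tested for the offsets; the adjustment is less strict and the filter tests fewer names.

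Counts of pathway genes moved with the model of compared groups and the fold above 2: from 9 to 2 and 4 between untreated lines, 15 to 8 and 5 under OXA, 11 to 5 and 4 under OXA plus Curcumin, 9 to 4 and 2 for OXA against untreated in HT29, 6 to 1 and 1 in HTOXAR3, 10 to 4 and 2 for OXA plus Curcumin against untreated in HT29, 11 to 4 and 3 in HTOXAR3, and for added Curcumin 4 to 0 and 0 in HT29 and 4 to 0 and 1 in HTOXAR3. Calls over all names fell too, from 5107 to 1647 and 1266 under OXA and from 5025 to 1670 and 1160 under OXA plus Curcumin. For added Curcumin they fell from 1983 to 21 and 218 in HT29, and from 3187 to 264 and 359 in HTOXAR3. Benjamini-Hochberg adjustment gave 14 and 12 pathway genes for OXA against untreated in HT29 and HTOXAR3. For added Curcumin, the mean of all probes gave 2 in HT29 and normexp with 75th percentile scaling 2 in HTOXAR3. For the line difference in this effect, 0 became 1 with an offset of 50, dim probes left out and Benjamini-Hochberg adjustment.

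Leaving out 1 array at a time gave 0.25 to 0.29 for SERPINE2 under OXA and 2 to 4 pathway genes for added Curcumin in each line. No other call of these 3 genes changed. The replicate block changed none of their calls either (PLAU for Curcumin in HT29 -1.24), and neither did the slide as a block. With processed intensity scaled to the 75th percentile, the median difference of all names was -0.19 for OXA against untreated in HTOXAR3, beside 0.01 in the fit reported, and also -0.19 for OXA plus Curcumin against untreated there. The comparison with the authors' processed values was not run, because their lines could not be matched to probes.

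The 3 arrays of a group limit every estimate, and 2 of the 5 genes lie at background, where a low level cannot be told from none. HTOXAR3 received more OXA than HT29, so line and dose are joined in each comparison of treated lines. Slide 1 holds 2 arrays of HT29 alone. RNA levels say nothing on the activity of the secreted proteases.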
